A study of Mus musculus with 9 samples.

Results

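The endoplasmic reticulum (ER) gene set described here holds 36 genes for folding, sensing and disposal of proteins in the ER, chosen by symbol and sorted by role. They are 4 genes of the stress sensors and their effector, 12 chaperones and co-chaperones, 6 genes of disulfide exchange, 11 genes of ER-associated degradation (ERAD) and 3 genes of the translocon. All 36 were found among the 54532 gene IDs of the table, each with a single ID, and all 36 were among the 13245 genes tested, which averaged at least 0.5 FPKM over the 9 libraries. Derl3 was the single member with a control mean under that limit, so it passed through its level in OGE and OGP. The libraries came from HT22, a line of immortalized mouse hippocampal cells, of wild-type genotype in every group. OGE cells went through 2 h of oxygen-glucose deprivation (OGD) and 24 h of reoxygenation with extracellular vesicles of mesenchymal stem cells made from human induced pluripotent stem cells (hiPS-MSC-EVs). OGP cells had the same 2 h and 24 h with PBS, and control cells were left untreated. Each group had 3 libraries. Control cells thus differ from OGP cells in deprivation, reoxygenation and PBS together. The sample labels name the standard medium for reoxygenation, whereas the study's methods name media that differed in serum or EVs, so serum and treatment cannot be told apart here.

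Proteins for secretion or for membranes enter the ER through the SEC61 channel, fold there with chaperones and disulfide isomerases, and are pulled back to the cytosol for degradation when they fail to fold. In the unfolded protein response (UPR), 3 sensors of the ER membrane read the load of unfolded protein. IRE1alpha (Ern1) splices the mRNA of the transcription factor XBP1, ATF6 is cut in the Golgi to free a transcription factor, and PERK (Eif2ak3) phosphorylates eIF2alpha, which slows translation and favours ATF4. ATF6 and spliced XBP1 induce chaperone and ERAD genes, and folding of glycoproteins in the ER depends on a supply of glucose. The measurements are total mRNA levels, so they show neither the splicing of Xbp1 mRNA nor the cleavage or phosphorylation of the sensors.

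Each library held 15026700 to 19476806 reads in genes, and levels are given as FPKM, fragments scaled by gene length and by depth. As a check of the cell label, 3 of 14 neuron markers were over 1 FPKM in each group, with Rbfox3 and Snap25 at or near 0, 1 of 5 astrocyte, 1 of 6 microglia, 0 of 5 endothelial and 0 of 5 oligodendrocyte markers were, and 5 of 6 mesenchymal markers were. The mesenchymal sum was 372 to 436 FPKM in OGE, 382 to 451 FPKM in OGP and 656 to 971 FPKM in control libraries. Most of it was Col1a1, at means of 369 FPKM in OGE, 383 FPKM in OGP and 777 FPKM in control cells. Col1a2 was also highest in control cells, at 18.2, 17.6 and 25.4 FPKM in that order. Nt5e was highest in OGE, at 4.57, 1.66 and 1.29 FPKM, and Pdgfrb overlapped between all groups. Eng overlapped between OGE and control, and Thy1 was at or near 0. The sum thus does not describe these markers as a class. Mitochondrially encoded genes took 2.03 to 2.90% of reads in OGE, 2.45 to 3.25% in OGP and 1.102 to 2.31% in control libraries. The part of the mesenchymal markers or of the mitochondrial share in the results was not tested. On the third principal component, OGE replicate 3 lay at -19.4, against 2.01 and 8.77 for the other OGE libraries, and control replicate 1 at 33.1, against -15.0 and -11.0 for the other control libraries, so each count of called members is also given without these 2. Nothing says that the libraries came from separate cultures, so the p-values measure only the spread between them, which may be technical. In bulk RNA, more cells with a high level and more mRNA per cell cannot be told apart.

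The promoters are shown first because several members carry the same sequence word. The ER stress response element (ERSE), to which NF-Y and ATF6 are known to bind, reads CCAAT and CCACG with 9 bases of any kind between them. RefSeq promoter windows (GRCm38.p6, 250 bases before to 50 bases after the RefSeq start, which can differ from the gene start in the files) were at hand for 30 of the 36 members, and were searched on both strands. An exact ERSE stood in 9 of the 30, or 30.0%, against 0.137% of all 27025 genes with a window. The element was first described in promoters of ER chaperone genes, so its presence here is background and no independent finding. The sites are printed 5' to 3' on the strand on which the motif reads as spelled, with 9 flanking bases and the fixed letters in capitals.
Hspa5 chr2:34772016-34772052: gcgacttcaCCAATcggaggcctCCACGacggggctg
Calr chr8:84847066-84847102: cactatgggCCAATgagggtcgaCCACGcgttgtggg
Creld2 chr15:88819511-88819547: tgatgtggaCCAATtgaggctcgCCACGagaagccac
Dnajc3 chr14:118937818-118937854: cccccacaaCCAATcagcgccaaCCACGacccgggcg
Hsp90b1, distal chr10:86705629-86705665: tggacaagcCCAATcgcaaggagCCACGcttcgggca
Hsp90b1, proximal chr10:86705524-86705560: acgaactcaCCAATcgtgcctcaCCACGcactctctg
Canx chr11:50325791-50325827: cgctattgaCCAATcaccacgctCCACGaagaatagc
Pdia6 chr12:17266482-17266518: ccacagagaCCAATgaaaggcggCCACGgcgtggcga
Derl3 chr10:75893233-75893269: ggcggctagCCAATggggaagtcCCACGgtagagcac
Syvn1 chr19:6046523-6046559: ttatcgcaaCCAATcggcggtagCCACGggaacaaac

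Hspa5, which encodes BiP, a standard readout of the UPR, is shown with the 250 bases before its start to place the site in its promoter (chr2:34771840-34772089, plus strand, capitals as above).
Hspa5 promoter: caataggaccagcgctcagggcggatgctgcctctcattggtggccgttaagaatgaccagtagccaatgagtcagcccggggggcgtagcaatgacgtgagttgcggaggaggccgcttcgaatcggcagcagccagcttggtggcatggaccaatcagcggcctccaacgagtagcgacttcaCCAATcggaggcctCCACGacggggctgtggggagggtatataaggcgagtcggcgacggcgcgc
Its exact ERSE covered positions -65 to -47, counted from the first transcribed base as 0. Over the 9 genes, sites lay between positions -212 and -26, and Hsp90b1 carried 2, on opposite strands.

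**Figure D1:**
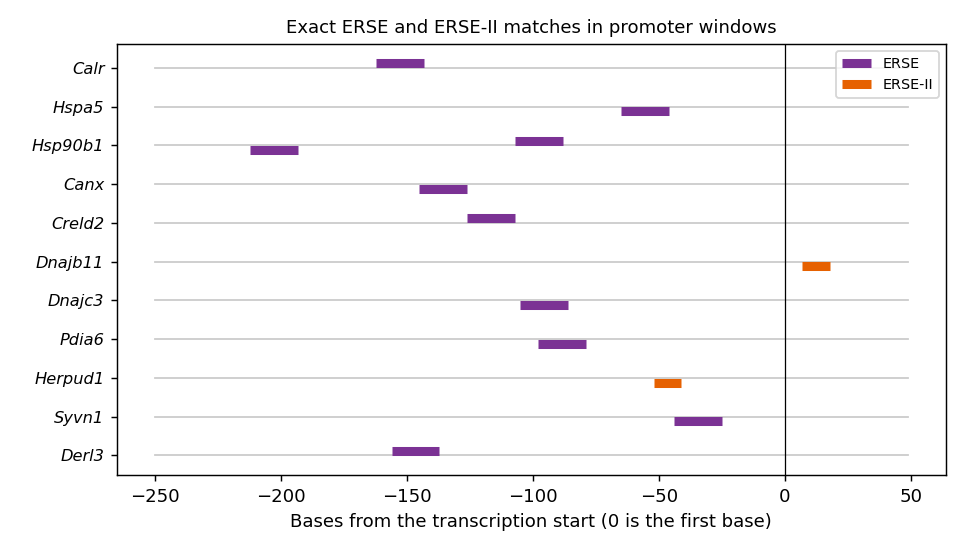
Position of each exact ERSE and ERSE-II match in the promoter windows of the 11 members that hold one, in bases from the transcription start. Bars below a gene's grey line read on the gene's own strand and bars above it on the opposite strand. All ERSE matches lie before the start, and the ERSE-II of Dnajb11 lies after it.

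The related ERSE-II, ATTGG and CCACG with a single base between them, stood in 2 members, Herpud1 and Dnajb11, against 0.0444% of all genes. Herpud1 was also the single member with TTGCATCA, a composite site for C/EBP and ATF factors such as ATF4, found in 1.03% of all genes. These sites are shown because Herpud1 was among the members called in OGP against control and holds both motifs.
Herpud1, ERSE-II chr8:94386368-94386396: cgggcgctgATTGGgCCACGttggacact
Herpud1, composite site chr8:94386308-94386333: cacggcgggTTGCATCAgcccgcacc
Dnajb11, ERSE-II chr16:22857843-22857871: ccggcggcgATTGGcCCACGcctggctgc
The UPR element TGACGTGG stood in Txndc5 and Txndc11 and in 0.714% of all genes. With up to 1 mismatch in its fixed letters, the ERSE stood in 14 of the 30 members and in 1.72% of all genes. None of the 4 motifs matched exactly in the window of Ern1, Eif2ak3, Xbp1, Dnajb9, Dnajc10, Sdf2l1 or Pdia4. The same was so for Pdia3, P4hb, Edem1, Edem2, Edem3, Sel1l, Derl2, Os9, Sec61b and Ssr1. A match is a description of the window, not evidence of binding.

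In OGP cells, many of the ER genes stood higher than in control cells, and 10 of the 14 members called were in the chaperone role. That role, as sorted here, also holds the genes of the secreted proteins Manf and Creld2 and of the reductase Dnajc10. A member was called when its adjusted p (limma, all 13245 genes) was at most 0.05 and its fold at least 1.5. In OGP against control, 14 members were called higher and 0 lower, and 22 were not called (24 at an unadjusted p under 0.05), where 6.38% of all genes tested were called higher and 5.74% lower. The median log2 fold change over the members was 0.39, against 0.01 over all genes tested, and 35 of 36 values were above 0. In 25 members all 3 OGP libraries lay above all 3 control libraries, which was so for 20.3% of all genes tested. Without control replicate 1 and OGE replicate 3 the count of members called higher was again 14, and voom on reads recovered from the FPKM gave 14 higher and 0 lower. Without Derl3 the count was 13 of 35. At an adjusted p of at most 0.05 and any fold, 22 members were higher, where 13.8% of all genes tested were. The share of all genes at an unadjusted p under 0.05 was not counted. Counts of members at that threshold, here and below, thus have no share beside them.

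Between OGE and OGP, the members were called at about the rate of all genes. In OGE against OGP, 1 member of 36 (2.78%) was called higher, Ern1, and 0 lower, where 3.39% of all genes tested were called higher and 4.73% lower. The median log2 fold change was 0.05 and the range -0.48 to 0.68. Below the fold threshold, 6 further members had an adjusted p of at most 0.05, of which Hyou1, Sel1l, Sec61a1, Edem1 and Eif2ak3 had higher values in OGE and Herpud1 lower ones. With Ern1 these are 6 members higher and 1 lower, or 19.4% of 36 in both directions together. Of all genes tested, 10.6% were higher and 10.2% lower at that threshold, or 2750 of 13245 together. The pooled share is near that of the members. By direction the members were uneven, 6 higher and 1 lower, while the shares of all genes were about equal, and this difference was not tested. For each of the 6 below the fold threshold, the highest adjusted p over the 21 alternative settings was above 0.05. It ran from 0.0582 (Herpud1) to 0.155 (Eif2ak3). All 3 OGE libraries lay above all 3 OGP libraries in 11 of 36 members and below them in 3, where 23.3% of all genes tested had OGE above OGP and 22% had OGE below OGP. At an unadjusted p under 0.05, for which the share of all genes was not counted, there were 11 members in either direction. The fit with voom also gave 1 higher and 0 lower. Without the 2 libraries named above the count was again 1.

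In OGE against control, 14 members were called higher and 0 lower, where 5.14% of all genes tested were called higher and 6.33% lower. The median log2 fold change was 0.51, and in 30 members the OGE libraries lay above every control library, which was so for 18.6% of all genes tested. Without control replicate 1 and OGE replicate 3 the count was 18, and voom gave 17 higher and 0 lower. Without Derl3 the count was 13 of 35. At an adjusted p of at most 0.05 and any fold, 27 members were higher, where 11.7% of all genes tested were. At an unadjusted p under 0.05 there were 29. Of the 36 members, 12 were called higher in both OGP and OGE against control, 2 in OGP alone (Dnajc10 and Herpud1), 1 in OGE against control alone (Pdia4), Ern1 in OGE against both others, and 20 in no comparison. The first and last comparisons share the control libraries, so their values are given side by side only.

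**Figure D2:**
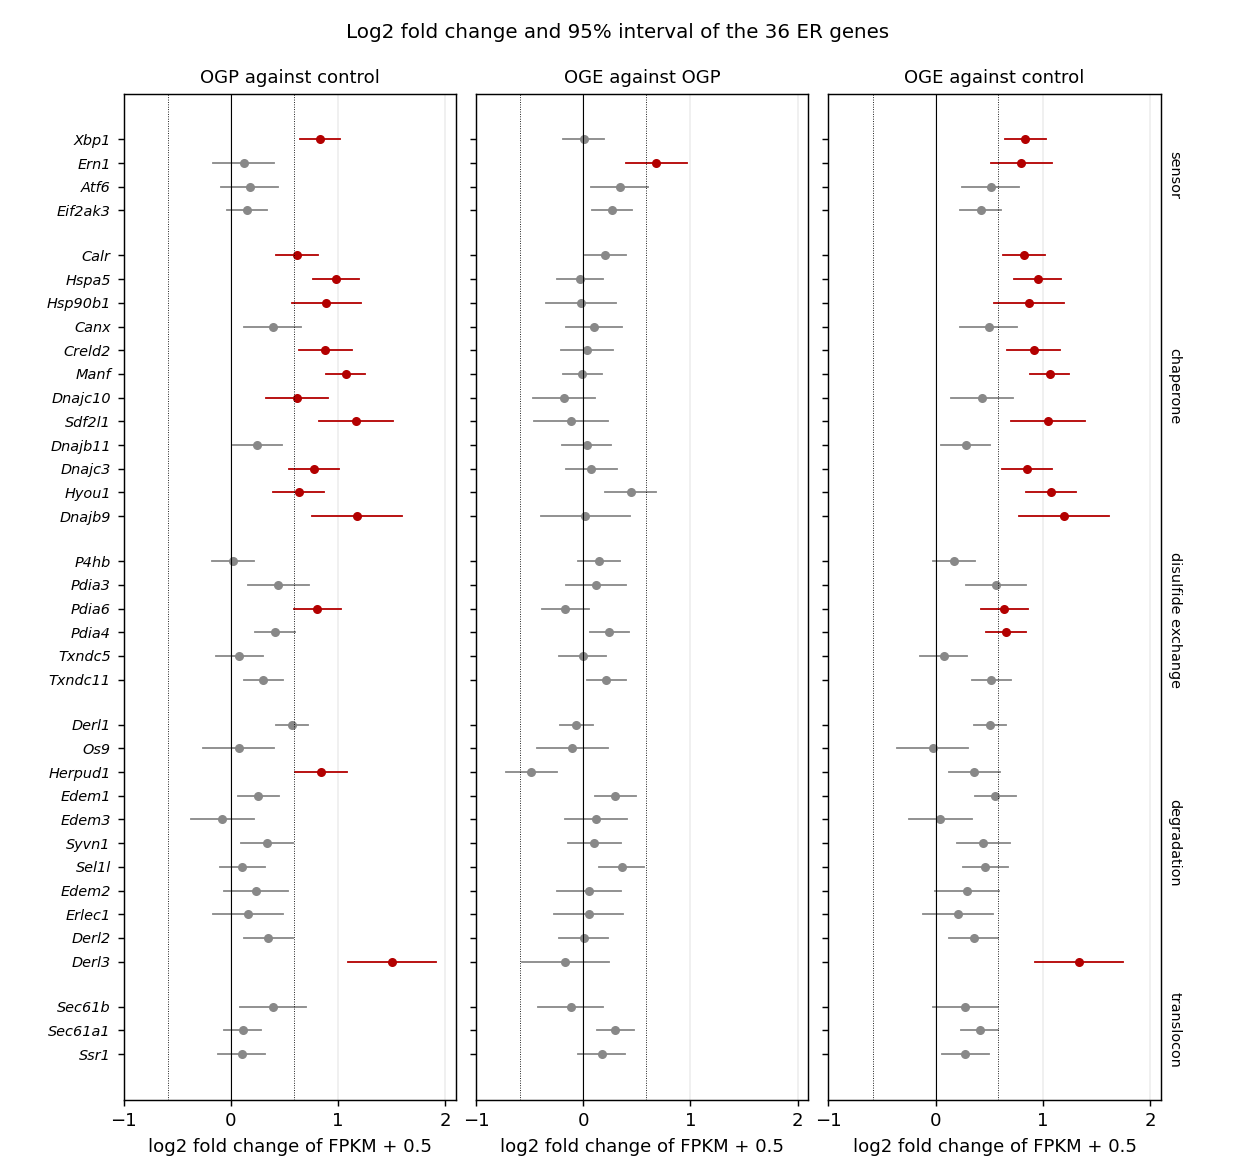
Log2 fold change of FPKM + 0.5 (points) with 95% interval (lines) of each member in the 3 comparisons, grouped by role. Red marks members called higher, grey those not called, and dotted lines a fold of 1.5. Red points cluster in the chaperone rows of both comparisons with control, and the single red point of OGE against OGP is Ern1.

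Together the members took 1.52 to 1.60% of reads in genes in OGE, 1.38 to 1.52% in OGP and 0.942 to 1.03% in control libraries. Per length, their summed level was 4283 ± 133 FPKM in OGE, 4111 ± 218 FPKM in OGP and 2779 ± 54.7 FPKM in control cells (SD, n = 3 each). Chaperones supplied 72.8% of the summed difference between OGP and control, and disulfide exchange genes 17.6%. In control cells these roles already held 1336 and 1022 of the 2779 FPKM. Hspa5, Hsp90b1, Calr, Pdia3 and Pdia6 alone supplied 68.4% of the difference. They were picked as the 5 largest differences in FPKM, and they ranked 2 to 6 by level in control cells, so abundance enters this share. The most abundant member was Calr in OGE and in OGP, at a mean of 681 and 591 FPKM, and P4hb in control cells, at 465 FPKM. Calr and Hspa5 overlapped in the OGP libraries, so their order there is within the spread.

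**Figure D3:**
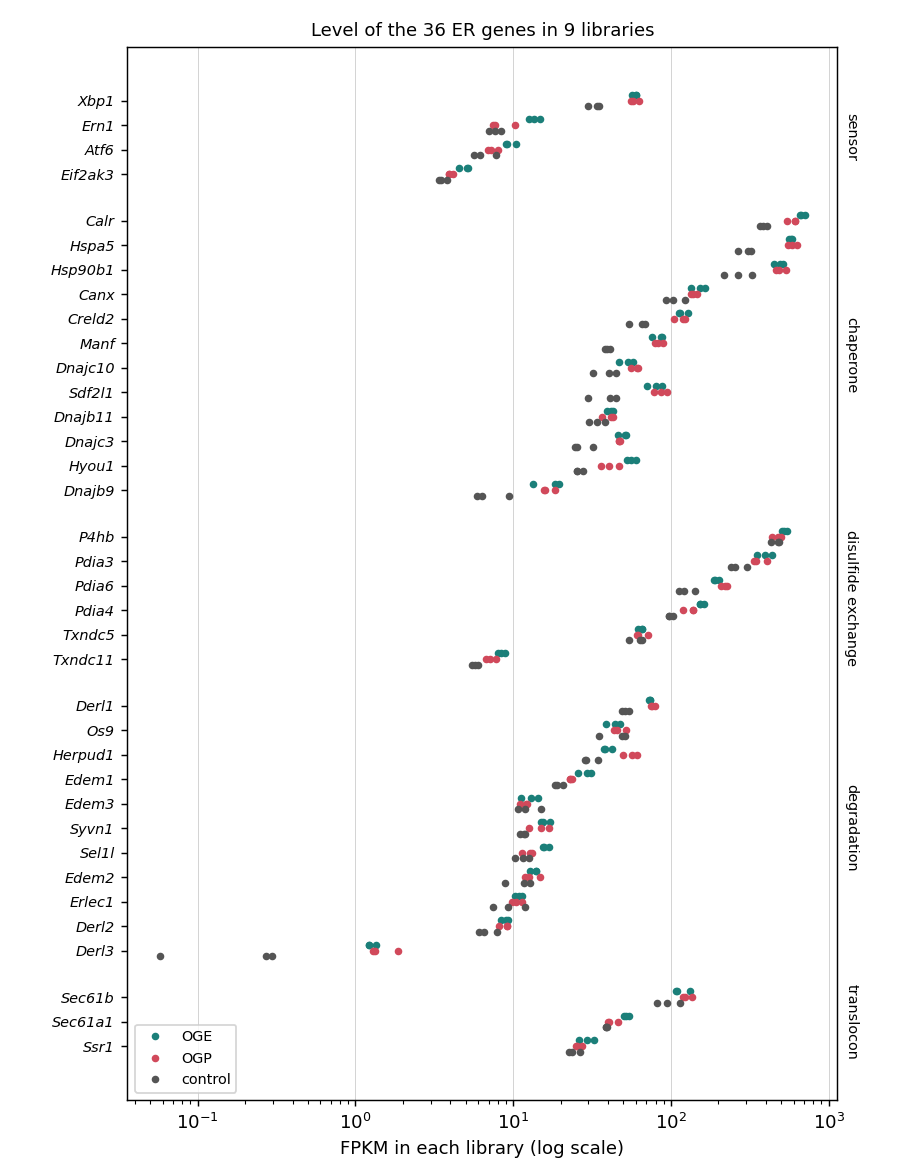
FPKM of the 36 members in each of the 9 libraries on a log scale, grouped by role and ordered by the control mean, with OGE above OGP above control in each row. Levels run from 0.0575 FPKM (Derl3, control replicate 1) to 708 FPKM (Calr, OGE replicate 2), and the control points sit left of the others in most chaperone rows.

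Of the 4 sensor and effector genes, Xbp1 was called in both comparisons with control, and Ern1 in OGE against both other groups. Ern1 (ENSMUSG00000020715, chr11:106394650-106487852), the sensor that splices Xbp1 mRNA, had 13.6, 12.6 and 14.9 FPKM in OGE, 10.2, 7.46 and 7.65 FPKM in OGP and 8.41, 6.99 and 7.63 FPKM in control libraries. Every OGE library lay above every other library, while OGP and control libraries overlapped. Its log2 fold change was 0.68 (SE 0.13, adjusted p = 0.0059) in OGE against OGP and 0.80 (SE 0.13, adjusted p = 0.0019) in OGE against control, but 0.12 (95% interval -0.17 to 0.40) in OGP against control, which was not called. OGP replicate 1 was the highest of its group, and without it the value in OGE against OGP was 0.82. The call in OGE against OGP held in all 21 alternative settings, in which the log2 fold change ran between 0.60 and 0.82.

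Xbp1 (ENSMUSG00000020484, chr11:5520659-5525893), the transcription factor gene that Ern1 acts on, took another course. It had 60.3, 60.1 and 56.6 FPKM in OGE, 56.3, 57.5 and 62.8 FPKM in OGP and 34.0, 35.0 and 29.7 FPKM in control libraries. Both treated groups stood clear of control and overlapped each other. The log2 fold change was 0.83 (SE 0.08, adjusted p = 0.00019) in OGP against control, 0.84 (SE 0.08, adjusted p = 0.000142) in OGE against control and 0.00 (95% interval -0.18 to 0.19) in OGE against OGP. At the level of the gene, the spliced and unspliced forms are counted together.

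Atf6 (ENSMUSG00000026663, chr1:170704674-170867771) had 9.13, 10.4 and 9.01 FPKM in OGE, 8.05, 6.97 and 7.20 FPKM in OGP and 7.79, 5.65 and 6.19 FPKM in control libraries. OGE libraries were above all others, and control replicate 1 lay within the OGP range. The log2 fold change in OGE against control was 0.51 (SE 0.12, adjusted p = 0.0123), short of the fold threshold, and 0.64 without control replicate 1, which passed it. In OGE against OGP it was 0.34 (SE 0.12, adjusted p = 0.0732). Eif2ak3 (ENSMUSG00000031668, chr6:70844515-70905245), which encodes PERK, had 4.52, 5.21 and 5.08 FPKM in OGE, 4.16, 3.94 and 3.94 FPKM in OGP and 3.41, 3.80 and 3.48 FPKM in control libraries. The 3 groups did not overlap, yet no step reached 1.5-fold: the log2 fold change was 0.42 (SE 0.08, adjusted p = 0.00628) in OGE against control, 0.27 (SE 0.08, adjusted p = 0.0496) in OGE against OGP and 0.15 (95% interval -0.04 to 0.34) in OGP against control.

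**Figure D4:**
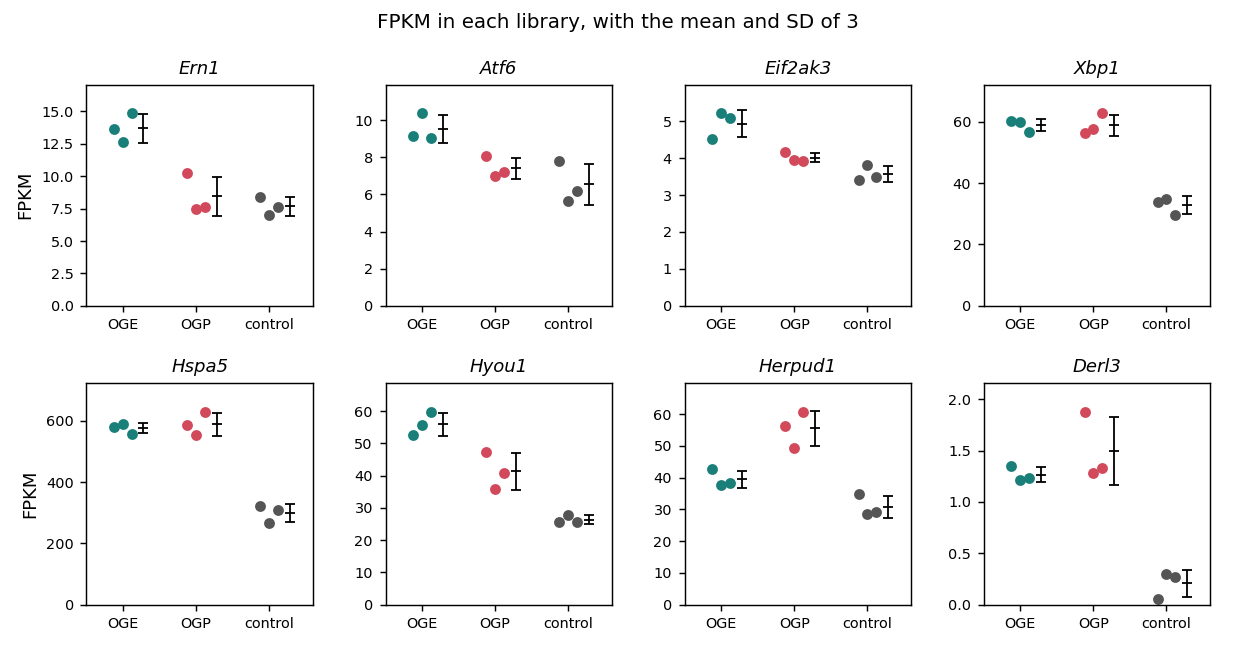
FPKM of the 4 sensor and effector genes and of Hspa5, Hyou1, Herpud1 and Derl3 in each library (points), with the mean and SD of 3 libraries beside them, on axes that start at 0. Ern1 is high in OGE alone, Xbp1, Hspa5 and Derl3 are high in OGE and OGP, Hyou1 is highest in OGE and Herpud1 is highest in OGP.

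The chaperones were the role with the most calls, 10 of 12 in OGP against control and 9 of 12 in OGE against control, with medians of 0.83 and 0.89. None was called in OGE against OGP, where the median was 0.03 and 2 of 12 were at an unadjusted p under 0.05. Hspa5 (ENSMUSG00000026864, chr2:34771970-34777547), the ER's HSP70, had 580.3, 589 and 558 FPKM in OGE, 586, 553 and 629 FPKM in OGP and 322, 267 and 308 FPKM in control libraries. Both treated groups stood near 2-fold above control without overlap. The log2 fold change was 0.98 (SE 0.10, adjusted p = 0.000165) in OGP against control, 0.95 (SE 0.10, adjusted p = 0.000147) in OGE against control and -0.03 (95% interval -0.25 to 0.19) in OGE against OGP. Hsp90b1 (ENSMUSG00000020048, chr10:86690209-86705509), which encodes GRP94, the HSP90 of the ER, had 495, 517 and 453 FPKM in OGE, 466, 482 and 537 FPKM in OGP and 328, 217 and 265 FPKM in control libraries. Control libraries spread widely, with replicate 1 highest, but none reached the treated ones. Its log2 fold change was 0.89 (SE 0.14, adjusted p = 0.00206) in OGP and 0.87 (SE 0.14, adjusted p = 0.00235) in OGE against control.

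In OGP against control, the steepest chaperone rises were in genes of BiP partners. Dnajb9 (ENSMUSG00000014905, chr12:44205559-44210326), the co-chaperone ERdj4, had 18.5, 19.4 and 13.4 FPKM in OGE, 15.8, 16.0 and 18.3 FPKM in OGP and 9.48, 6.36 and 5.89 FPKM in control libraries. Every treated library exceeded every control library, and OGE replicate 3 and control replicate 1 came nearest to each other. The log2 fold change was 1.18 (SE 0.19, adjusted p = 0.00185) in OGP and 1.20 (SE 0.19, adjusted p = 0.00169) in OGE against control. Sdf2l1 (ENSMUSG00000022769, chr16:17130138-17132383), part of a BiP complex, had 80.3, 70.6 and 88.0 FPKM in OGE, 94.5, 78.2 and 86.3 FPKM in OGP and 29.9, 41.2 and 45.0 FPKM in control libraries. The groups differed as for Dnajb9, with 1.16 (SE 0.15, adjusted p = 0.000735) in OGP and 1.05 (SE 0.15, adjusted p = 0.00123) in OGE against control on the log2 scale. Manf (ENSMUSG00000032575, chr9:106838312-106891979), a secreted factor that is released under ER stress and binds BiP, had 86.3, 88.0 and 76.3 FPKM in OGE, 79.3, 83.2 and 89.1 FPKM in OGP and 39.5, 40.9 and 38.4 FPKM in control libraries. Treated libraries held about 2 times the control level, with log2 fold changes of 1.07 (SE 0.08, adjusted p = 4.67e-05) in OGP and 1.07 (SE 0.08, adjusted p = 2.61e-05) in OGE against control. Rbm15b and Dcaf1, whose gene spans overlap that of Manf, averaged 13.8 and 7.99 FPKM over the 9 libraries, against 69.0 FPKM for Manf.

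Creld2 (ENSMUSG00000023272, chr15:88819646-88826683), a secreted ER stress protein, had 113, 115 and 129 FPKM in OGE, 123, 105 and 119.7 FPKM in OGP and 54.5, 68.4 and 65.9 FPKM in control libraries. It carries an ERSE, as do Hspa5, Hsp90b1 and Calr, and no treated library came down to the control range. Its log2 fold change was 0.88 (SE 0.11, adjusted p = 0.000548) in OGP and 0.91 (SE 0.11, adjusted p = 0.000385) in OGE against control. Dnajc3 (ENSMUSG00000022136, chr14:118937976-118981697), the co-chaperone p58IPK, which also restrains PERK, had 51.0, 52.3 and 46.0 FPKM in OGE, 47.6, 46.8 and 46.8 FPKM in OGP and 32.2, 24.7 and 25.4 FPKM in control libraries. Here too the treated groups overlapped each other and not control, with 0.78 (SE 0.10, adjusted p = 0.000844) in OGP and 0.85 (SE 0.10, adjusted p = 0.000456) in OGE against control on the log2 scale.

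For Calr and Hyou1 the OGE libraries stood highest. Calr (ENSMUSG00000003814, chr8:84841850-84846934), the calcium-binding lectin calreticulin, had 661, 708 and 673 FPKM in OGE, 608, 547 and 617 FPKM in OGP and 382, 406 and 368 FPKM in control libraries. The 3 groups were in separate ranges, but OGE against OGP gave 0.21 (SE 0.09, adjusted p = 0.123), which was not called. Against control its log2 fold change was 0.82 (SE 0.09, adjusted p = 0.000181) in OGE and 0.61 (SE 0.09, adjusted p = 0.00101) in OGP. That second call was close to the fold threshold, and was lost without control replicate 3 or without OGP replicate 3, at 0.58 for each, and after quantile normalization, at 0.45. Hyou1 (ENSMUSG00000032115, chr9:44379490-44392369), the large HSP70-type exchange factor of BiP, had 52.5, 55.7 and 59.7 FPKM in OGE, 47.2, 35.9 and 40.7 FPKM in OGP and 25.5, 27.9 and 25.6 FPKM in control libraries. Its OGE and OGP ranges were separate, at 0.44 (SE 0.10, adjusted p = 0.0174) on the log2 scale, below the fold threshold. Against control it gave 1.07 (SE 0.10, adjusted p = 0.000117) in OGE and 0.63 (SE 0.10, adjusted p = 0.00235) in OGP, and the OGP call was lost without OGP replicate 1, at 0.53.

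Dnajc10 (ENSMUSG00000027006, chr2:80315466-80354043), the reductase ERdj5, had 53.8, 57.3 and 47.1 FPKM in OGE, 56.0, 62.0 and 61.0 FPKM in OGP and 45.1, 31.9 and 40.4 FPKM in control libraries. OGE libraries were above control ones and overlapped OGP ones. It was called in OGP against control, at 0.62 (SE 0.13, adjusted p = 0.00706), but not in OGE against control, at 0.43 (SE 0.13, adjusted p = 0.0354), and the difference between OGE and OGP was -0.18 (95% interval -0.47 to 0.11). The call was lost without control replicate 2, at 0.48, and after quantile normalization, at 0.57. Without control replicate 1 and OGE replicate 3, Dnajc10 was called in OGE against control too, at 0.62. The remaining chaperones, the membrane lectin gene Canx and the co-chaperone gene Dnajb11, were not called in any comparison. Canx gave 0.39 (SE 0.12, adjusted p = 0.0325) in OGP and 0.49 (SE 0.12, adjusted p = 0.0139) in OGE against control, and the OGE value was 0.60 and called without control replicate 1. Dnajb11 gave 0.25 (SE 0.10, adjusted p = 0.0971) in OGP and 0.28 (SE 0.10, adjusted p = 0.0747) in OGE against control.

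Disulfide exchange genes split. Pdia6 was called in both comparisons with control and Pdia4 in OGE alone, and the median of the 6 genes was 0.36 in OGP and 0.54 in OGE against control. Pdia6 (ENSMUSG00000020571, chr12:17266545-17284770), an isomerase that binds BiP and restrains IRE1alpha, had 191, 187 and 203 FPKM in OGE, 226, 207 and 221 FPKM in OGP and 112, 121 and 142 FPKM in control libraries. All OGE libraries lay between the control range and the OGP range. The log2 fold change was 0.81 (SE 0.10, adjusted p = 0.000479) in OGP and 0.64 (SE 0.10, adjusted p = 0.00157) in OGE against control, and -0.17 (95% interval -0.39 to 0.05) in OGE against OGP. The OGE call was lost without control replicate 1, at 0.56, and without it and OGE replicate 3, at 0.53. Pdia4 (ENSMUSG00000025823, chr6:47796141-47813430), the isomerase ERp72, had 152, 163 and 154 FPKM in OGE, 139, 119.5 and 138 FPKM in OGP and 103, 96.7 and 97.6 FPKM in control libraries. Its 3 groups were in separate ranges with OGE highest. It gave 0.65 (SE 0.08, adjusted p = 0.000506) in OGE and 0.41 (SE 0.08, adjusted p = 0.00584) in OGP against control, and 0.24 (SE 0.08, adjusted p = 0.0643) in OGE against OGP.

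P4hb, the archetypal protein disulfide isomerase and a subunit of prolyl hydroxylase, was among the most abundant members and had the smallest absolute log2 fold change of all 36 in OGP against control, 0.02 (95% interval -0.18 to 0.22). Its means were 522 ± 18.4 FPKM in OGE, 472 ± 29.1 FPKM in OGP and 465 ± 30.3 FPKM in control cells (SD, n = 3 each). Txndc5 likewise gave 0.08 (95% interval -0.14 to 0.30) in OGP and 0.08 (95% interval -0.15 to 0.30) in OGE against control. Pdia3, the isomerase that works with calreticulin and calnexin, was at an adjusted p of 0.0263 in OGP and 0.0107 in OGE against control, with log2 fold changes of 0.44 and 0.56, below the fold threshold. The OGE value was called without control replicate 1, at 0.66, and without OGE replicate 3, at 0.64. Txndc11, a thioredoxin-type gene of the ER membrane, gave 0.30 (SE 0.08, adjusted p = 0.0202) in OGP and 0.52 (SE 0.08, adjusted p = 0.00167) in OGE against control, and its span overlaps that of Snn, with 7.12 FPKM for Txndc11 and 22.0 FPKM for Snn on average.

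Of the 11 ERAD genes, Derl3 and Herpud1 were called in OGP against control and Derl3 in OGE against control. Derl3 (ENSMUSG00000009092, chr10:75893413-75895941), a derlin of the retrotranslocation complex, had the largest log2 fold change of all 36 members and the lowest level. It had 1.35, 1.21 and 1.23 FPKM in OGE, 1.88, 1.29 and 1.33 FPKM in OGP and 0.0575, 0.296 and 0.270 FPKM in control libraries. These values rest on 38 to 48 reads in OGE, 42 to 74 in OGP and 2 to 10 in control libraries. No treated library was near the control range. A gene that passes the filter only through the groups where it is high had to differ, so its calls add no support to the counts. On the scale with 0.5 FPKM added, which shrinks a gene this low, the log2 fold change was 1.501 (SE 0.18, adjusted p = 0.000482) in OGP and 1.34 (SE 0.18, adjusted p = 0.000803) in OGE against control. With other pseudocounts and settings the OGP value ran between 1.05 and 3.03, and it was called in each of 20, since a filter at a mean of 1 FPKM left the gene out.

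Herpud1 (ENSMUSG00000031770, chr8:94386438-94395377), which brings the ubiquitin ligase and the derlins together, was the single member with lower values in OGE than in OGP at an adjusted p of at most 0.05. It had 42.6, 37.8 and 38.2 FPKM in OGE, 56.4, 49.5 and 60.7 FPKM in OGP and 34.7, 28.4 and 29.1 FPKM in control libraries. All OGE libraries lay below all OGP libraries and above all control libraries, as was so for Pdia6 and Derl1. The log2 fold change was 0.84 (SE 0.11, adjusted p = 0.000592) in OGP against control, -0.48 (SE 0.11, adjusted p = 0.013) in OGE against OGP and 0.36 (SE 0.11, adjusted p = 0.0359) in OGE against control, the last 2 of which were below the fold threshold. Over the 21 alternative settings the value in OGE against OGP stayed between -0.56 and -0.36, with an adjusted p between 0.0041 and 0.0582.

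The other 9 ERAD genes were not called. Derl1, the best-known derlin, came nearest in OGP against control, at 0.57 (SE 0.07, adjusted p = 0.000409). In OGE against control Derl1 gave 0.51 (SE 0.07, adjusted p = 0.00068), and Edem1 came nearest. The OGP value of Derl1 was called without control replicate 3, at 0.60, and without OGP replicate 2, at 0.59. Edem1, which draws misfolded glycoproteins out of the folding cycle, gave 0.30 (SE 0.08, adjusted p = 0.0362) in OGE against OGP and 0.55 (SE 0.08, adjusted p = 0.00161) in OGE against control, and the OGE against control value was called without control replicate 1, at 0.60, and without OGE replicate 3, at 0.63. Sel1l, the scaffold of the ligase, gave 0.11 (95% interval -0.10 to 0.31) in OGP against control and 0.36 (SE 0.09, adjusted p = 0.0257) in OGE against OGP, while Syvn1, the ligase itself, gave 0.34 (SE 0.11, adjusted p = 0.0426) in OGP and 0.44 (SE 0.11, adjusted p = 0.0162) in OGE against control. Derl2 gave 0.35 (SE 0.10, adjusted p = 0.0282) in OGP and 0.36 (SE 0.10, adjusted p = 0.03) in OGE against control. Edem2, Edem3 and the lectin genes Os9 and Erlec1 had an adjusted p of at least 0.147 in both comparisons with control, with log2 fold changes between -0.08 and 0.29. Of these, 3 overlap neighbours on the opposite strand, and whether counting used strand is not given: Syvn1 overlaps Mrpl49 (14.1 against 30.1 FPKM on average) and Derl2 overlaps Mis12 (8.18 against 28.3 FPKM). Erlec1 overlaps Asb3 (10.3 against 4.74 FPKM).

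No translocon gene was called, and 1 of the 3 had an unadjusted p under 0.05 in OGP against control, 1 in OGE against OGP and 2 in OGE against control. Sec61a1, the channel subunit, was at 52.2, 54.2 and 50.2 FPKM in OGE, 46.4, 40.0 and 40.8 FPKM in OGP and 38.6, 39.6 and 39.1 FPKM in control libraries. OGE libraries were highest, with log2 fold changes of 0.30 (SE 0.08, adjusted p = 0.0241) against OGP and 0.41 (SE 0.08, adjusted p = 0.00444) against control. Sec61b gave 0.39 (SE 0.13, adjusted p = 0.0539) in OGP against control and -0.12 (95% interval -0.42 to 0.19) in OGE against OGP, and Ssr1, of the signal sequence receptor, 0.10 (95% interval -0.12 to 0.32) and 0.17 (95% interval -0.04 to 0.39) in the same order.

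The members with an exact ERSE and those without one were set side by side as a description. Of the 9 with an ERSE, 7 were called higher in OGP against control and the same 7 in OGE against control, Canx and Syvn1 being the exceptions. Leaving out Derl3, which passed the filter through OGE and OGP alone, 6 of 8 were called. Of the 21 with a window and no exact ERSE, 5 were called higher in each of these comparisons. The median log2 fold change in OGP against control was 0.81 with an ERSE and 0.26 without, and in OGE against OGP it was 0.03 with and 0.06 without. The ranges overlapped, at 0.34 to 1.501 with an ERSE and -0.08 to 1.18 without in OGP against control. The medians and the range with an ERSE include Derl3, which gave the 1.501. The next highest value with an ERSE was 0.98, of Hspa5, which lies inside the range without an ERSE. Hyou1 and Manf, called in both comparisons with control, were among the 6 members without a window. With an ERSE, Hspa5, Hsp90b1, Calr, Canx, Dnajc3 and Creld2 are chaperones, the role with the most calls. Of the chaperones with a window and no exact ERSE, Dnajb9, Dnajc10 and Sdf2l1 were called in OGP against control and Dnajb11 was not. Motif and role thus cannot be told apart here. With up to 1 mismatch, 8 of 14 members with the motif and 4 of 16 without it were called higher in each comparison with control.

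Of a list of other ER genes, 73 were tested. In OGP against control 10 were called higher and 1 lower, in OGE against OGP 0 higher and 3 lower, and in OGE against control 6 higher and 2 lower, and the median log2 fold changes were 0.15, -0.03 and 0.10. Of all genes tested, 6.38% were called higher and 5.74% lower in OGP against control. The shares were 3.39% and 4.73% in OGE against OGP, and 5.14% and 6.33% in OGE against control. The counts of the smaller lists that follow stand beside these same shares, and no list was tested as a set. The list of translocon, signal peptidase and signal-sequence receptor genes also holds Sil1, which is none of these. That list had 1 of 13 higher and 1 lower in OGP against control. The higher one was Sec61g, the small channel subunit, at 59.2, 60.0 and 69.7 FPKM in OGE, 91.9, 106 and 111 FPKM in OGP and 39.9, 56.6 and 44.1 FPKM in control libraries. OGE libraries lay between the OGP and control ranges, and the log2 fold change was 1.14 (SE 0.14, adjusted p = 0.000458) in OGP against control and -0.71 (SE 0.14, adjusted p = 0.00714) in OGE against OGP. The signal peptidase subunit gene Spcs3 was lower, at -0.74 in OGP and -0.61 in OGE against control (adjusted p = 0.00566 and 0.0158), and in OGE against control the catalytic subunit gene Sec11c was higher, at 0.66 (SE 0.10, adjusted p = 0.00156).

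Of 12 N-glycan genes, Ostc of the oligosaccharyltransferase was called in OGP against control, at 0.79 (SE 0.10, adjusted p = 0.000641), and none in the other comparisons. Of 18 further genes of disulfide exchange, prolyl isomerases and calcium binding, 2 were called higher in each comparison with control. They were Ero1lb, an oxidase that recharges the isomerases, at 0.88 in OGP and 1.14 in OGE against control, and Fkbp14, a prolyl isomerase, at 0.95 and 0.59 in the same order. Their adjusted p lay between 0.000251 and 0.00396. Of 14 other degradation genes, Selenos, a partner of the derlins, was called in OGP against control, at 0.87 (SE 0.08, adjusted p = 0.000145), and none elsewhere. A list of 9 genes on stress at the ER membrane included Bet1, which is a SNARE of transport from the ER rather than a stress regulator. It also included Tmed2, likewise a gene of transport. Serp1, which steadies new membrane proteins, and Bet1 were the genes of this list called in both comparisons with control. Serp1 and Bet1 gave 0.82 and 0.86 in OGP and 0.80 and 0.64 in OGE, with adjusted p between 0.000546 and 0.0151.

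Of the 7 PERK and ATF4 output genes, 3 were called higher in OGP against control and 2 lower in OGE against OGP, and the medians were 0.53 and -0.44. Trib3, a pseudokinase gene induced by ATF4 and CHOP, had 22.6, 20.1 and 27.4 FPKM in OGE, 47.8, 41.1 and 44.2 FPKM in OGP and 13.1, 15.6 and 16.2 FPKM in control libraries. OGE libraries were below all OGP ones and above all control ones, at -0.92 (SE 0.13, adjusted p = 0.0012) in OGE against OGP, 1.54 (SE 0.13, adjusted p = 6.74e-05) in OGP against control and 0.62 (SE 0.13, adjusted p = 0.00665) in OGE against control. Atf4 was called in OGP against control at 0.79 (SE 0.11, adjusted p = 0.00106), and Ddit3, which encodes CHOP, at 0.60 (adjusted p = 0.00181). Chac1, a glutathione-degrading enzyme downstream of ATF4, had 17.1, 13.9 and 14.2 FPKM in OGE, 32.1, 27.5 and 28.7 FPKM in OGP and 19.2, 26.2 and 24.9 FPKM in control libraries. OGE libraries were the lowest, at -0.95 (SE 0.13, adjusted p = 0.00121) in OGE against OGP and -0.61 (SE 0.13, adjusted p = 0.00825) in OGE against control.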

How the data were processed

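The authors aligned paired-end reads of poly-A RNA with HISAT2 2.0.5 to mm10 and counted them per gene with featureCounts. The deposited values are FPKM, made by the authors from these counts, by a program not given in the sources used here. Multiplied by gene length, 100% of values were whole steps to within 0.1, which gave reads per gene and library. Values were tested as log2(FPKM + 0.5) in limma 3.58.1 (R 4.3.3), using a trend in the prior variance and 1 model of all 9 libraries. Genes averaging 0.5 FPKM or more (13245) were tested, Benjamini-Hochberg adjustment covered all of them, and the model gave SE and 95% intervals. The procedure was checked on simulated data. Values after ± are SD.

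The members and the lists of other ER genes were chosen with earlier results of these data known. Library values are given for the 4 sensors and each called member, and at most 2 called genes of smallest p are named for each other list and comparison. Library values of Sec61a1 and the mention of Ddit3 were added after seeing the data. Of 75 other ER genes in the table, Fkbp7 and Creb3l1 fell under the filter. Hm13 was not analysed here. Ddit3 occurs with 2 IDs, of which ENSMUSG00000025408 was used. Promoters are those of RefSeq on GRCm38.p6, the assembly of mm10. Alternatives were pseudocounts of 0.1 and 1, no filter or a mean of 1 FPKM, no fold threshold, median-of-ratios and quantile scaling, 6 libraries at a time, a robust prior variance, a replicate block, voom on recovered reads, and leaving out libraries.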

Additional observations from a re-analysis of the deposited data

How the results depend on the processing

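No member changed sign under a call in any of the 21 alternative settings of a comparison. Without the fold threshold, at an adjusted p of at most 0.05 alone, 22 members were higher in OGP against control, 6 higher and 1 lower in OGE against OGP, and 27 higher in OGE against control, since that threshold is what the setting removes. Of all genes tested, 13.8%, 10.6%, 10.2% and 11.7% were, in that order. Leaving out each library in turn gave 13 to 15 members higher in OGP against control, 1 in OGE against OGP and 14 to 17 in OGE against control, and 0 lower in each. Over the other settings the counts ran between 12 and 14, at 1, and between 13 and 18. Of the members called higher, 11 of 14 in OGP against control, 1 of 1 in OGE against OGP and 13 of 14 in OGE against control were called in every setting that tested them. With the replicate number as a block, the counts were 14, 1 and 14. Libraries with the same number deviated from their group means with r between -0.18 and 0.32 over 9 pairs, and those with other numbers between -0.35 and 0.26 over 18. These ranges overlap, and with 3 libraries in each group they can neither show nor exclude a pairing by number. With 3 libraries against 3, an exact permutation test of a single gene cannot go below 0.10.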
